A study of Homo sapiens with 62 samples.

Results

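The 10 genes described here encode proteins of the tight junction: the claudins CLDN1, CLDN3, CLDN4, CLDN7, CLDN12, CLDN18 and CLDN23, together with OCLN, TJP1 and F11R. They were taken by name from count tables of 29794 genes. The rule uses no measured value, though the list was drawn up with earlier results of these data known. The tables come from SLAM-seq, in which cells take up the uridine analogue 4-thiouridine (4sU), here for 2 h, so that reads of RNA made during that time carry T>C conversions. Libraries of 3′ ends were made from the human pancreatic ductal adenocarcinoma lines AsPC-1 (classical subtype) and T3M-4 (basal-like subtype), 62 in 12 groups. All groups carried FKBP12-F36V-FLAG-KLF5_sgEndogenousKLF5, that is, KLF5 (a zinc-finger transcription factor) replaced by a degron-tagged copy from a lentiviral vector. The study describes selection of the infected cells and does not say how many pools were made per line. For 4 h, cells of the dTAG groups were given dTAGv-1, which degrades the tagged KLF5, and those of the NEG groups dTAGv-1-NEG, an analogue that does not, with 10 against 10 libraries in AsPC-1 and 4 against 4 in T3M-4. CB-6644, which inhibits the ATPase RUVBL1/2, was compared with DMSO at 4 h (5 against 5 libraries in AsPC-1, 4 against 4 in T3M-4) and at 12 h in AsPC-1 (4 against 4). NVP-2, which inhibits the transcription kinase CDK9, was given for 4 h to 4 libraries of each line and was set against the same DMSO libraries as CB-6644.

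Tight junctions seal the space between neighbouring epithelial cells near their apical border. Claudins are membrane proteins with 4 transmembrane spans that form the strands of the seal, and the mix of claudins sets which ions pass. OCLN (occludin) is a further strand protein, TJP1 (ZO-1) is the scaffold that ties the strands to actin, and F11R (JAM-A) is an immunoglobulin-type adhesion molecule beside them. CLDN4 and CLDN7 are widely made in pancreatic duct and carcinoma cells, and CLDN18 is best known from stomach epithelium.

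Promoter sequence is shown for CLDN1, CLDN3 and CLDN7 in full windows and for CLDN4 in part. It sets the bases before their starts beside their behaviour when the KLF5 protein was degraded. Of the 10 members, 8 had entries in the RefSeq promoter table (GRCh38.p14), with 14 promoters between them. F11R and CLDN23 had none. Windows of 250 bases before each start were searched on both strands for CCNCNCCC, the core of the KLF family consensus, and for CACCTG, an E-box, with overlapping matches run together. Capitals mark the matches, and the sequences run 5′ to 3′ on the gene's strand.
CLDN1, chr3:190322447-190322696, minus strand: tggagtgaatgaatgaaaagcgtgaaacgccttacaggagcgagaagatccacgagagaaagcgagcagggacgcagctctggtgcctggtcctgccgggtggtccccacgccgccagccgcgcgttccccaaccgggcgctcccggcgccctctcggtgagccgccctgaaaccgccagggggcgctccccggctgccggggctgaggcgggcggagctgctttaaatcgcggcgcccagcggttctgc
CLDN3, chr7:73770271-73770520, minus strand: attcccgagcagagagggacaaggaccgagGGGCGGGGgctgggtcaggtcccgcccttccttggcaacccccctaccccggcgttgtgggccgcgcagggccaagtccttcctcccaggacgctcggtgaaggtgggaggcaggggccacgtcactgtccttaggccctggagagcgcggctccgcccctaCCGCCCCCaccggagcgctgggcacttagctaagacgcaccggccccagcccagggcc
CLDN7, chr17:7263214-7263463, minus strand: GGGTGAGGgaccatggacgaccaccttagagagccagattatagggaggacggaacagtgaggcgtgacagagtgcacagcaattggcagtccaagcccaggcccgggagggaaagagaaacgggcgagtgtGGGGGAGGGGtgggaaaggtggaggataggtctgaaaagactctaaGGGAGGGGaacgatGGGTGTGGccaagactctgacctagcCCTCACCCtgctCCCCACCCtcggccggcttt
CLDN4, chr7:73830930-73830959, plus strand, 66 to 37 bases before the start: aaaaCCCCTCCCtctgcCCCCGCCCctctg
CLDN1 held no match to either motif, CLDN3 held 2 to the KLF letters, and the CLDN7 window shown held 7. A second CLDN7 start downstream (window chr17:7262479-7262728, not shown) held 4 matches to the KLF letters and 4 to the E-box. The CLDN4 stretch holds both KLF matches of its 250 bases. Among members not shown, matches to the KLF letters were 3 in each OCLN window, 0 to 8 in the TJP1 windows and 0 for CLDN12 and CLDN18. The E-box matched in each OCLN window and in single windows of CLDN18 and TJP1. CCNCNCCC was in 53.4% of 35116 such windows and CACCTG in 17.5%, so a match is common and describes letters only.

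On hg38 the genes lie at chr3:190305707-190322446 (CLDN1), chr7:73768997-73770270 (CLDN3), chr7:73799542-73832690 (CLDN4), chr17:7259903-7263983 (CLDN7), chr7:90383721-90513402 (CLDN12), chr3:137998735-138033655 (CLDN18), chr8:8701937-8704096 (CLDN23), chr5:69492292-69558104 (OCLN), chr15:29699367-29968915 (TJP1) and chr1:160995211-161021343 (F11R). Counts come from their 3′UTR exons. CLDN4 has 3 overlapping 3′UTR records (chr7:73831829-73832690), and 41 of its 61 all-read counts were multiples of 3, so its counts can hold a read more than once. Records of CLDN7, CLDN12, CLDN18, OCLN, TJP1 and F11R overlap as well, so theirs can too. The 3′UTR span of CLDN7 is overlapped on the same strand by another protein-coding record over 766 bases, its whole length, and by ELP5 on the opposite strand over 38 bases, and CLDN7 has a processed pseudogene on chromosome X. F11R is overlapped on the same strand by another protein-coding record over 917 bases, CLDN12 by a long noncoding RNA over 2546 bases and TJP1 by a further one over 1346 bases. OCLN has 17 3′UTR records and a pseudogene on chromosome 5. The counts of CLDN7, F11R, CLDN12, TJP1 and OCLN are less certain for these reasons as well.

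AsPC-1 libraries held 82.7 to 200.3 M reads (M, 1000000 reads) and T3M-4 libraries 111 to 245 M. T>C reads numbered 8.30 to 18.3 M per AsPC-1 library and 13.6 to 28.0 M per T3M-4 library, and 2.24 to 3.52 and 3.71 to 4.98 M with NVP-2. The all-reads column of 1 AsPC-1 dTAG library (3.1) equalled the T>C column of a DMSO 12 h library, so results that need all reads have 9 dTAG libraries there. AsPC-1 libraries fell into 3 sets by their 500 most variable genes with the members left out, of 17, 17 and 8 libraries. These sets crossed the treatments but were not balanced over them. At 4 h, library 1.2 fell in the second set with CB-6644 and in the first with DMSO. The third set held no NVP-2 library. In the DMSO libraries 6 of 6 ductal epithelium markers averaged at least 1 CPM (count per 1000000 reads) in both lines, as did 6 of 7 classical markers in AsPC-1 (2 of 7 in T3M-4) and 6 of 6 basal-like markers in T3M-4 (1 of 6 in AsPC-1). Of 5 fibroblast markers 1 reached that level in each line, of 4 leukocyte markers 1, and of 3 endothelial markers 0. KLF5 T>C reads were higher with dTAG by 0.60 on the log2 scale in AsPC-1 (156 ± 18.3 against 105 ± 20.2 CPM, edgeR adjusted p = 0.00284) and by 0.90 in T3M-4 (1097 ± 75.5 against 559 ± 44.4 CPM, adjusted p = 0.0258). The degrader removes the protein, so this RNA is no check of the labels.

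In DMSO several members differed between the lines, as did many genes. All-read CPM (counts per 1000000 of a library's own total, written as mean ± SD) of the 5 AsPC-1 and 4 T3M-4 DMSO 4 h libraries put CLDN1, CLDN7 and F11R higher in T3M-4 and CLDN3, CLDN12 and CLDN23 higher in AsPC-1. These 6 of 9 members tested passed the edgeR quasi-likelihood test with a Benjamini-Hochberg adjusted p under 0.05 over all genes, against 55.7% of all genes. The members therefore did not stand apart by count. Log2 changes (with their standard error, SE) rest on TMM-scaled totals, so they can differ from the ratio of the CPM means. Whether a level differs through the number of cells of a type or through RNA per cell cannot be told apart in bulk libraries. CPM were not compared between genes.

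CLDN1, a strand-forming sealing claudin, stood at 49.9, 42.6, 57.3 and 57 CPM in T3M-4 and at 9.64, 13.4, 5.70, 16.3 and 15.5 CPM in AsPC-1. All T3M-4 libraries lay above all AsPC-1 libraries, a log2 difference of 2.00 (SE 0.27, edgeR adjusted p = 0.000122). CLDN7 averaged 159.5 ± 13.8 CPM in T3M-4 (n = 4) and 39.8 ± 8.63 CPM in AsPC-1 (n = 5), a log2 difference of 1.91. F11R averaged 99.3 ± 0.56 against 47.0 ± 4.19 CPM, a log2 difference of 0.99. The ranges of both genes were apart.

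CLDN3 ran the other way, at 0.839 ± 0.278 CPM in T3M-4 and 2.49 ± 0.819 CPM in AsPC-1 (log2 difference -1.66, edgeR adjusted p = 0.0017). CLDN12, a claudin that lacks the usual tail for binding scaffolds, averaged 8.41 ± 2.34 against 14.6 ± 0.905 CPM (log2 difference -0.89, adjusted p = 0.0028). CLDN23 averaged 0.366 ± 0.181 against 1.00 ± 0.144 CPM (log2 difference -1.54, adjusted p = 0.0041). None of these 3 genes had overlapping ranges. The share of all genes with ranges apart is not given, so the ranges describe these genes only. CLDN4 did not pass, at 104 ± 8.09 CPM in T3M-4 and 120.3 ± 43.8 CPM in AsPC-1 (log2 difference -0.30), nor did OCLN (2.26 against 2.59 CPM) or TJP1 (0.516 against 0.324 CPM, edgeR adjusted p = 0.223, ranges apart). The 6 calls held when each library was left out. With the NEG 4 h libraries in place of DMSO, TJP1 was called higher in T3M-4 as well (log2 difference 0.99, edgeR adjusted p = 0.0233, where its 12 alternatives ran from 0.0233 to 0.365). On T>C reads in place of all reads CLDN3 (log2 difference -1.34, edgeR adjusted p = 0.10) and CLDN12 (-0.64, adjusted p = 0.0602) lost theirs.

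**Figure D1:**
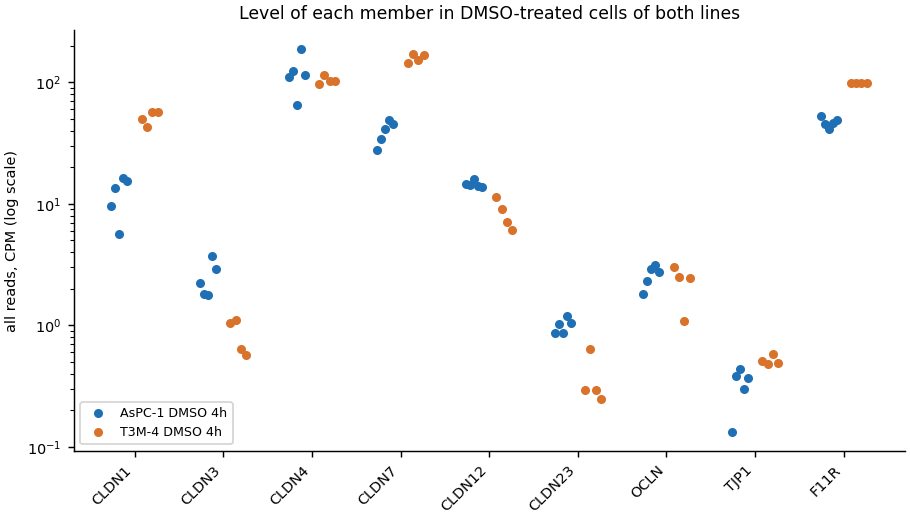
All-read CPM (log axis) of 9 members in each DMSO 4 h library of AsPC-1 and T3M-4. CLDN1 at 42.6 to 57.3 CPM in T3M-4 lies above its 5.70 to 16.3 CPM in AsPC-1, CLDN3 lies below, and the CLDN4 points of the lines overlap.

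CLDN18 was not detectable at a level that can be compared. Its count was 0 in 35 of 61 all-read columns and at most 13 in any. T>C counts were above 0 in 2 of 62 libraries, at 3 each. Its 3′UTR records overlap, so such a count can hold a read more than once. TJP1 (11 to 145 reads in all per library) and CLDN23 (15 to 212) were low as well, which limits their tests.

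The labelled share, the percent of a gene's reads that carry T>C conversions, differed between members within each line. In the AsPC-1 DMSO 4 h libraries it averaged 31.2 ± 3.17% for CLDN4, 13.0 ± 1.1% for F11R and 7.55% for CLDN7, and in T3M-4 40.4 ± 4.48%, 13.9% and 8.31 ± 1.44%. CLDN4 was the member whose share passed between lines, 33.7, 34.3, 32.4, 28.0 and 27.7% in AsPC-1 against 45, 42.7, 34.8 and 38.8% in T3M-4. These ranges were apart, by 0.58 on the log2 odds scale of labelled to unlabelled reads (SE 0.17, edgeR adjusted p = 0.0474), where the median of all genes was 0.29. This was 1 of 9 members, against 13.5% of all genes.

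The comparison of dTAG with NEG asked how new RNA of these genes changed when KLF5 was degraded for 4 h. No member passed the edgeR test on T>C reads in either line: 0 of 9 in AsPC-1 and 0 of 9 in T3M-4, where 2.4% and 0.834% of all genes tested were called. At an unadjusted p under 0.05 the member counts were 0 and 1, beside 1413 of 11696 and 957 of 13424 genes. DESeq2 called 0 members in both lines. The members' median log2 change was -0.09 (AsPC-1) and -0.03 (T3M-4), beside 0.03 and 0.01 over all genes. With the replicate number as a block, 281 AsPC-1 calls became 867 and 112 T3M-4 calls became 298, and still no member was among them.

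CLDN4 T>C CPM in AsPC-1 ran from 210.3 through a median of 271 to 502 with dTAG, and from 232 through 338 to 529 with NEG. The groups overlapped over most of their range, with means of 291 ± 78.4 and 359.6 ± 98.6 CPM (n = 10 each) and a log2 change of -0.29 (SE 0.17, edgeR adjusted p = 0.541). In T3M-4 CLDN4 stood at 321, 210, 217 and 217 CPM with dTAG and at 319, 252, 340 and 320 CPM with NEG. There 3 of 4 dTAG libraries lay below every NEG library and 1 lay among them, for a log2 change of -0.43 (SE 0.20, edgeR adjusted p = 0.707).

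Scaling mattered for CLDN4. Scaled by the library's total of all reads in place of T>C reads, AsPC-1 CLDN4 gave 23.2 ± 6.08 T>C reads per 1000000 with dTAG and 33.0 ± 6.87 with NEG, a called log2 change of -0.51 (edgeR adjusted p = 0.0361, where its 13 alternatives ran from 0.0361 to 0.946). That scaling moved the median of all genes to -0.22 and the calls from 227 lower of 281 to 929 lower of 941. F11R gave -0.31 (adjusted p = 0.054) on that scale, CLDN23 -0.62 (adjusted p = 0.16) and CLDN3 -0.74, the largest fall of a member, none called. In all reads CLDN4 stood at 105 ± 22.5 and 119.6 ± 28.3 CPM, a log2 change of -0.21, and no member was called.

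For F11R, AsPC-1 held 55.7 ± 9.53 T>C CPM with dTAG and 61.1 ± 8.98 with NEG, overlapping, with a log2 change of -0.11 (SE 0.12, edgeR adjusted p = 0.820). T3M-4 held 200, 137, 125 and 106 CPM with dTAG against 103, 92.9, 96.1 and 108 with NEG, a log2 change of 0.43 (SE 0.21, edgeR adjusted p = 0.764). In 3 of the 4 dTAG libraries F11R exceeded its highest NEG value. In all reads the T3M-4 groups did not overlap (113 ± 12.8 against 91.2 ± 6.41 CPM), and the log2 change of 0.27 was not called.

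OCLN was the member below an unadjusted p of 0.05 in T3M-4, at 6.44, 8.15, 9.12 and 5.86 T>C CPM with dTAG and 4.94, 3.22, 4.65 and 3.80 with NEG. The groups did not overlap, with a log2 change of 0.75 (SE 0.30, edgeR adjusted p = 0.554). In AsPC-1 it stood at 8.27 ± 5.11 and 6.74 ± 3.66 CPM (0.31), with overlap. TJP1, which OCLN binds inside the cell, gave 1.25 against 2.17 CPM in T3M-4 (-0.87, SE 0.50) and 1.07 ± 0.43 against 0.862 ± 0.52 CPM in AsPC-1 (0.32).

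The other claudins gave small differences within the spread of the libraries. CLDN1 T>C CPM in AsPC-1 ranged from 5.14 to 42.2 with dTAG and from 3.32 to 35.0 with NEG (log2 change 0.35, SE 0.41, edgeR adjusted p = 0.843). In T3M-4 it was tighter, at 87.2 ± 5.67 and 84.4 ± 4.72 CPM (-0.03). With library set and experiment as a block, chosen after seeing the data, CLDN1 in AsPC-1 gave 0.40 (edgeR adjusted p = 0.0405) and was called, as were 911 genes. It was not called with the replicate block or with counts summed per experiment, and its 13 alternatives ran from 0.0405 to 0.997. CLDN7 gave 29.5 ± 14.6 against 31.8 ± 12.4 CPM in AsPC-1 (-0.09) and 101 ± 15.6 against 96.1 ± 13.1 CPM in T3M-4 (0.01). CLDN12 gave 26.1 ± 4.22 against 23.9 ± 5.18 CPM in AsPC-1 (0.15) and 21.5 against 17.6 CPM in T3M-4 (0.21). CLDN3 gave log2 changes of -0.26 and -0.28 at 3.22 CPM or less. CLDN23 gave 2.14 ± 0.69 against 2.95 ± 0.97 CPM in AsPC-1, a log2 change of -0.45 (SE 0.25, edgeR adjusted p = 0.519). In T3M-4 its change was -0.26.

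**Figure D2:**
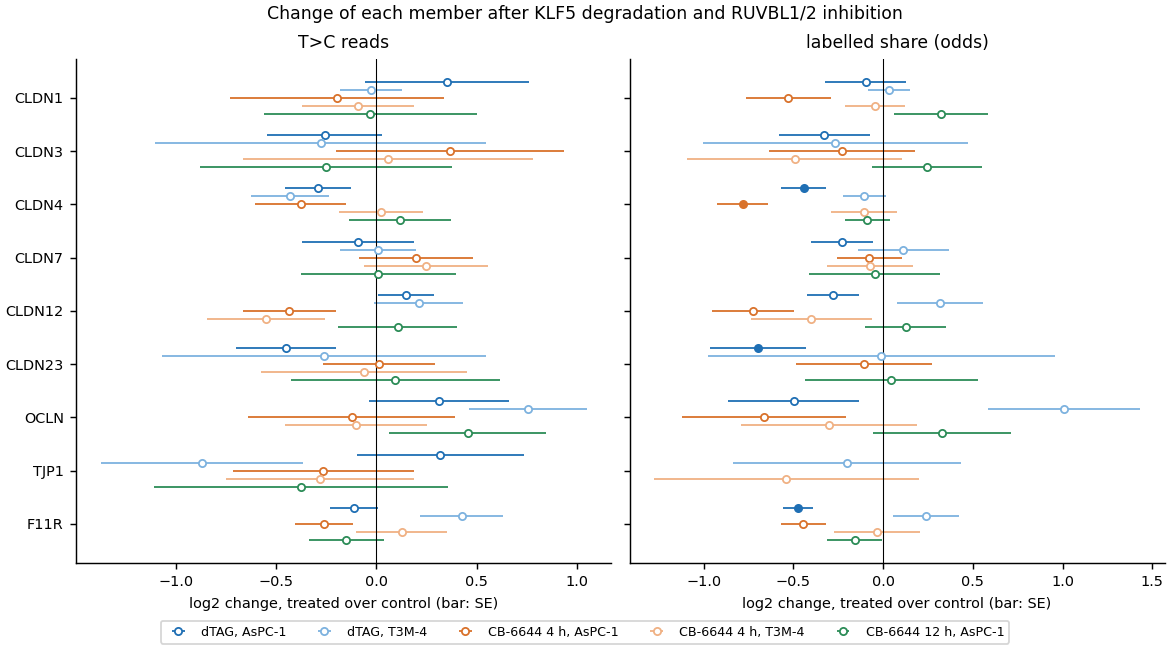
Log2 change ± SE of T>C reads and of the labelled share for 9 members with dTAG against NEG and CB-6644 against DMSO, filled where called. Filled points are the shares of CLDN4, CLDN23 and F11R with dTAG and of CLDN4 with CB-6644 at 4 h, all in AsPC-1, while the T>C changes with dTAG in AsPC-1, from -0.45 to 0.35, have none.

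The labelled share fell with dTAG in AsPC-1 in 4649 of 12334 genes, and CLDN4, CLDN23 and F11R were among the genes that passed. The call was made for 3 of 8 members tested, against 37.7% of all genes, so the members did not stand apart by count. Over all genes the median log2 odds change was -0.32, over the members -0.38. Relative to the all-gene median the changes were -0.12 for CLDN4, -0.37 for CLDN23 and -0.15 for F11R.

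F11R labelled share ran from 7.86 through a median of 9.70 to 10.9% with dTAG (n = 9) and from 11.2 through 12.5 to 14.6% with NEG (n = 10). No library of a group reached the other group, and the log2 odds change was -0.47 (SE 0.08, edgeR adjusted p = 0.000595). CLDN4 ran from 17 through 22.0 to 29.3% with dTAG and from 24.2 through 27.8 to 33.5% with NEG, with overlap (-0.44, SE 0.13, edgeR adjusted p = 0.0115). CLDN23 ran from 15.0 through 25.4 to 31.9% and from 20.0 through 34.3 to 37.4%, with overlap (-0.70, SE 0.27, edgeR adjusted p = 0.0454).

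The remaining members of AsPC-1 were not called, from 12.2 against 12.9% for CLDN1 (-0.10) to 19.7 against 24.3% for OCLN (-0.50, edgeR adjusted p = 0.27). The CLDN23 call was lost with the replicate block (-0.67, SE 0.28, edgeR adjusted p = 0.0680), and those of CLDN4 and F11R held. Without experiment 1, which held 4 libraries of each group, all 3 lost their call (CLDN4 -0.36, edgeR adjusted p = 0.234, CLDN23 -0.86, p = 0.180, F11R -0.48, p = 0.0553), while the genes called went from 4654 to 244. CLDN23 also lost it without experiment 2 (edgeR adjusted p = 0.0859) and without experiment 3 (p = 0.226), where CLDN3 gained one (-0.70, p = 0.0454). Over their alternatives the adjusted p ran from 0.0017 to 0.234 for CLDN4, from 0.0302 to 0.226 for CLDN23 and from 0.000158 to 0.0553 for F11R.

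In T3M-4 no member's share passed (0 of 9, against 0.258% of all genes, and 0 by limma). At an unadjusted p under 0.05 there was 1 member, beside 926 of 13579 genes. CLDN4 stood at 35.9, 40.6, 36.8 and 35.4% with dTAG and 40.0, 38.2, 40.7 and 36.7% with NEG, overlapping (-0.10, SE 0.12, edgeR adjusted p = 0.947). F11R stood at 19.2, 18.5, 15.0 and 12.2% against 15.4, 14.6, 12.1 and 13.7%, also overlapping (0.24). OCLN reached 32.5, 43.3, 51.1 and 27.4% against 25.2, 24.8, 28.9 and 16.3%, with 1 dTAG library inside the NEG range (1.01, SE 0.42, edgeR adjusted p = 0.699).

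**Figure D3:**
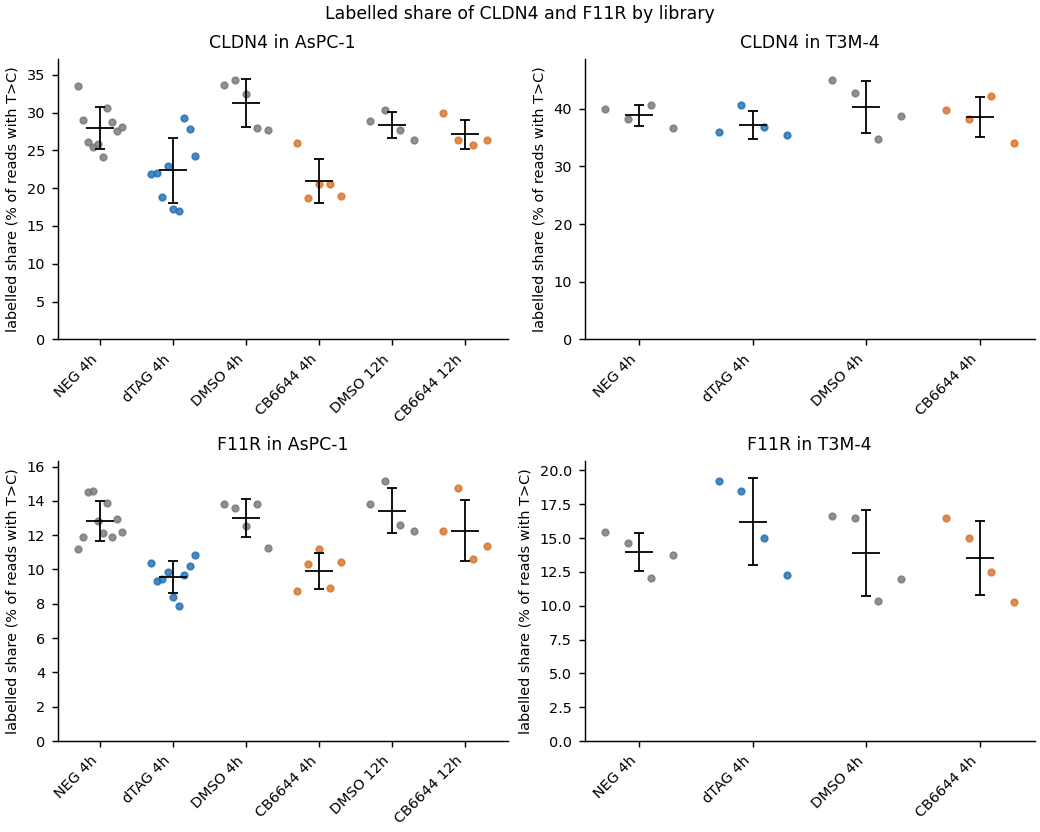
Labelled share in percent of CLDN4 and F11R in each library by group, with mean ± SD, for AsPC-1 and T3M-4 without NVP-2. F11R in AsPC-1 lies at 7.86 to 10.9% with dTAG, below the 11.2 to 14.6% of NEG, and the T3M-4 groups overlap.

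The dTAG effect on F11R differed between the lines. Its share change was higher in T3M-4 than in AsPC-1 by 0.71 log2 odds (SE 0.17, edgeR adjusted p = 0.0243), 1 of 9 members against 4.43% of all genes, where the median gene differed by 0.40. The T>C difference of F11R was 0.56 and was not called (adjusted p = 0.739), and 0 of 9 members passed on T>C reads against 0.0426% of all genes (824 genes at an unadjusted p under 0.05). CLDN4 shares differed by 0.34 (edgeR adjusted p = 0.295), CLDN12 by 0.60 (p = 0.164) and OCLN by 1.52 (p = 0.134), none called.

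CB-6644 left T>C reads of every member uncalled, with 0% of all genes called at 4 h in AsPC-1, at 4 h in T3M-4 and at 12 h in AsPC-1. At an unadjusted p under 0.05 there were 482, 569 and 473 genes, and DESeq2 called 1, 7 and 26 genes, none a member. CLDN4 stood at 245, 336, 274, 347 and 290 T>C CPM with CB-6644 at 4 h in AsPC-1 and at 363, 400, 199, 560 and 337 CPM with DMSO. The CB-6644 libraries lay within the DMSO range (log2 change -0.38, edgeR adjusted p = 0.98). CLDN12 gave -0.43 and F11R -0.26 (53.0 ± 3.53 against 61.0 ± 8.85 CPM). In T3M-4 CLDN12 gave -0.55, uncalled.

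The CLDN4 labelled share fell with CB-6644 at 4 h in AsPC-1. It stood at 26.0, 18.7, 20.5, 20.5 and 19.0% with CB-6644 and at 33.7, 34.3, 32.4, 28.0 and 27.7% with DMSO. The groups did not overlap, with a log2 odds change of -0.78 (SE 0.14, edgeR adjusted p = 0.0191). The median of all genes was -0.27, so CLDN4 lay 0.52 below it, at percentile 6.26 of all genes. All reads of CLDN4 were level, at 124 ± 27.4 and 120.3 ± 43.8 CPM (0.01). CLDN4 was 1 of 8 members called, against 1.92% of all genes.

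The CLDN4 call was narrow. Its edgeR adjusted p ran from 0.0122 to 0.0648 over 14 alternatives, 8 of which kept it. It was lost without CB-6644 library 1.2 (0.0648), 1.3 (0.0542), 2.1 (0.0603) or 2.2 (0.0536) and without DMSO library 1.2 (0.0594) or 1.3 (0.0513). With library set and experiment as a block it was -0.72 (edgeR adjusted p = 0.0178).

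F11R shares were apart as well, at 8.74, 10.3, 11.2, 8.94 and 10.4% with CB-6644 and 13.8, 13.6, 12.6, 13.8 and 11.3% with DMSO, and were not called (-0.44, edgeR adjusted p = 0.0854). CLDN12 gave 12.9 ± 1.97 against 20.1 ± 5.73% (-0.73, adjusted p = 0.107), CLDN1 -0.53 (p = 0.209), OCLN -0.66, and CLDN23 32.1 against 33.9%. The members' median was -0.49.

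Neither at 4 h in T3M-4 nor at 12 h in AsPC-1 was a member's share called, with 0% of all genes called in both (352 and 581 genes at an unadjusted p under 0.05, 0 and 2 called by limma). CLDN4 in T3M-4 stood at 39.8, 38.2, 42.1 and 34.1% with CB-6644 and 45, 42.7, 34.8 and 38.8% with DMSO (-0.11). At 12 h it stood at 29.9, 26.4, 25.8 and 26.4% against 28.9, 30.4, 27.7 and 26.3% (-0.09). Both pairs overlapped. F11R gave 13.6 against 13.9% in T3M-4 and 12.3 ± 1.78 against 13.4 ± 1.32% at 12 h.

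The differences of these effects were not called. CLDN4's share change was 0.68 higher in T3M-4 than in AsPC-1 (edgeR adjusted p = 0.49, SE 0.23) and 0.70 higher at 12 h than at 4 h (adjusted p = 0.168, SE 0.19). Between lines 0% of all genes were called on T>C reads and 0% on shares (511 and 1050 at an unadjusted p under 0.05), and between times 0% on T>C reads and 0.145% on shares (414 and 1398). The AsPC-1 CB-6644 and DMSO libraries at 4 h are of batch 1 and those at 12 h of batch 2, so time and batch cannot be told apart.

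With NVP-2 the labelled share of nearly all members fell, along with that of nearly all genes. The library-wide share was 1.57 ± 0.24% against 10.1 ± 0.62% in AsPC-1 and 2.24 ± 0.42% against 12.4 ± 1.56% in T3M-4. Of the members tested, 8 of 8 were called in AsPC-1 (93.6% of all genes) and 7 of 8 in T3M-4 (89.5%). The members' median log2 odds changes, -4.17 and -4.54, lay below the all-gene medians of -3.36 and -3.54. In AsPC-1 the NVP-2 libraries are of batch 2 and the DMSO 4 h libraries of batch 1, so treatment and batch cannot be told apart there. With the batch 2 DMSO 12 h libraries as controls 9 of 9 shares were called, and with the NEG libraries of experiment 3, 8 of 9. The share of all genes called with those controls is not given, so these counts are no result about the members.

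CLDN4 gave the deepest fall among the members with reads left in AsPC-1. Its share was 1.59, 0.80, 1.07 and 1.21% with NVP-2 against 31.2% with DMSO (log2 odds change -5.29), and in T3M-4 2.25, 1.84, 1.12 and 1.17% against 40.4% (-5.44). In T3M-4 CLDN4 was not the deepest, as the shares of OCLN (-5.92) and CLDN3 (-5.76) fell further. T>C reads of CLDN4 per 1000000 of all reads were 66.9-fold lower in AsPC-1 and 51.8-fold lower in T3M-4. Those of CLDN3 (72.1-fold) and CLDN23 (58.8-fold) fell further in T3M-4, with 1 and 2 T>C reads left. CLDN1, by contrast, went from 15.7 to 2.55% (AsPC-1) and from 17.4 to 2.84% (T3M-4), and its T>C reads per 1000000 of all reads were 6.85- and 6.16-fold lower.

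F11R went from 13.0 to 0.628% (-4.60) in AsPC-1 libraries and from 13.9 to 1.12% in T3M-4, CLDN12 from 20.1 to 1.4% and from 27.0 to 1.37%, and OCLN from 24.6 to 1.81% and from 38.4 to 1.17%. CLDN23 in AsPC-1 had 0 T>C reads of 258 reads over the 4 libraries, which allows a share of up to 1.16%, against 33.9% with DMSO. Taking the floor of 3 counts over the group, its T>C reads per 1000000 of all reads were at least 83.0-fold lower. Intervals and floors cover counting error only.

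CLDN7 in T3M-4 was the exception. Its share was 0.916, 5.81, 4.65 and 6.84% with NVP-2 and 6.74, 7.50, 9.09 and 9.91% with DMSO, overlapping, and was not called (-1.17, edgeR adjusted p = 0.0654). It was called without NVP-2 library 2.2 (-1.5, adjusted p = 0.0318) and with experiment as a block (-1.21, p = 0.0433). Its T>C reads made up 53.7, 403, 417 and 515 CPM against 68.9, 96.7, 125 and 152 CPM, higher in 3 of 4 NVP-2 libraries than in any DMSO library, a called log2 change of 2.30 (SE 0.62, edgeR adjusted p = 0.0199). This is a share of the T>C reads that remained. Scaled by all reads the direction turned, to -0.79 (adjusted p = 0.194), 1.76-fold lower. Over its 18 alternatives the adjusted p ran from 0.00101 (without NVP-2 library 1.1, 2.64) to 0.682, and 12 kept the call. It was lost without DMSO library 1.1 (0.0596), DMSO library 1.2 (0.0595) or NVP-2 library 2.2 (0.0519) and in batch 1 alone (1.85, 0.146).

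On T>C CPM 3 of 9 members tested were called in AsPC-1 (30.5% of all genes) and 2 of 7 in T3M-4 (26.7%). CLDN4 was lower in both, at 25.6, 13.5, 49.4 and 64.3 CPM against 363, 400, 199, 560 and 337 CPM in AsPC-1 (-2.75, edgeR adjusted p = 0.00102) and at 35.9 against 339.7 CPM in T3M-4 (-2.69, adjusted p = 0.000268). No NVP-2 library reached a DMSO library in AsPC-1. F11R was lower in AsPC-1 (17.6 against 61.0 CPM, -1.25, edgeR adjusted p = 0.00503), as was CLDN23. The F11R call was lost with library set and experiment as a block (-1.01, edgeR adjusted p = 0.0994). In that block only NVP-2 libraries 1.1 and 1.2 and DMSO libraries 1.1 and 1.2 shared a level, and these are of different batches. Scaled by all reads 9 members were called in AsPC-1 and 6 in T3M-4, and the calls over all genes went from 2018 lower of 3506 to 10823 lower of 10829 and from 1740 lower of 3263 to 10671 lower of 10680.

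In all reads CLDN4 in T3M-4 was the call among the members. T3M-4 libraries held 38.3, 67.0, 52.5 and 51.1 CPM with NVP-2 and 96.5, 116, 102 and 102 CPM with DMSO, with no overlap (-0.85, SE 0.19, edgeR adjusted p = 0.0304), where 4.91% of all genes were called lower and 0.243% higher. AsPC-1 libraries held 30.7, 25.1, 71.4 and 71.9 CPM against 111, 124, 65.0, 187 and 114 CPM, with overlap at 1 DMSO library (-1.07, adjusted p = 0.0809), where 8.39% and 3.43% of all genes were called lower and higher. CLDN23 stood apart there without a call (0.266, 0.103, 0.547 and 0.519 CPM against 0.859 to 1.2, -1.28, adjusted p = 0.0954). CLDN3 went the other way in AsPC-1, at 5.07 ± 2.94 CPM with NVP-2 against 2.49 ± 0.819 with DMSO. Its groups overlapped and its log2 change of 1.21 was not called (0.21 in T3M-4). CLDN1 (0.23 in AsPC-1, 0.18 in T3M-4), CLDN7 (0.26, 0.16) and F11R (0.13, 0.14) gave log2 changes near 0.

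**Figure D4:**
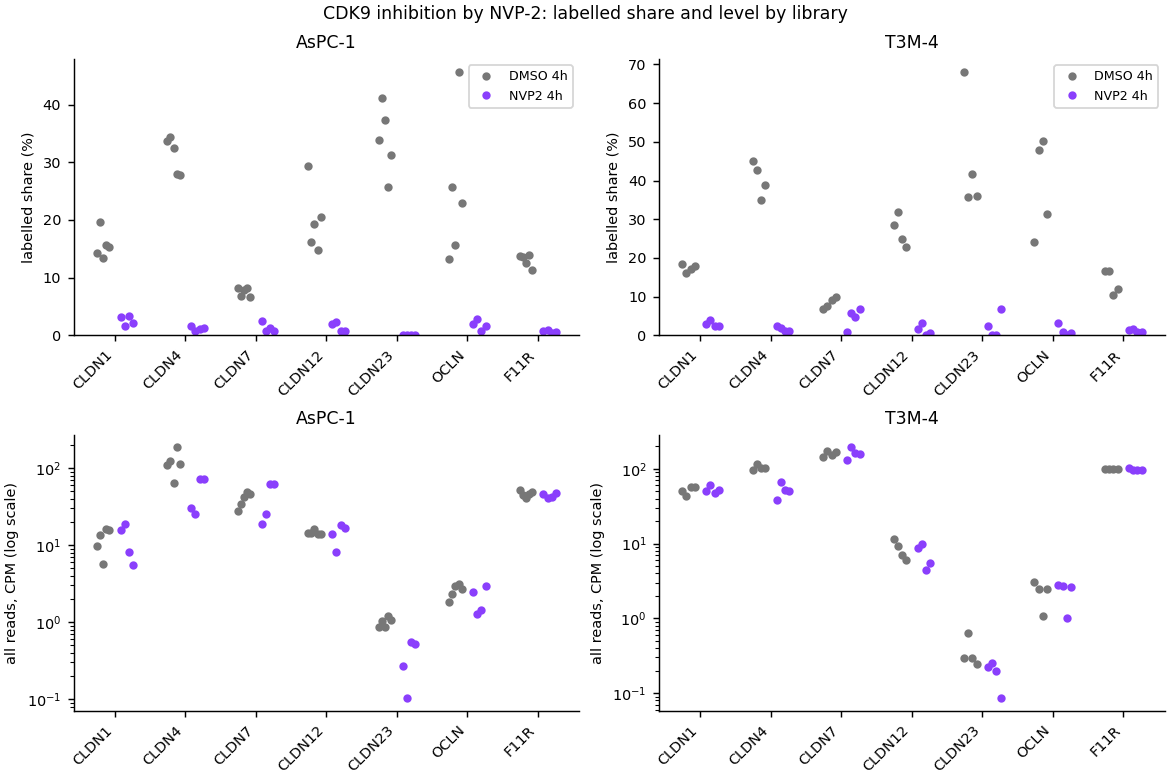
Labelled share in percent and all-read CPM (log axis) of 7 members in each DMSO and NVP-2 library of both lines. CLDN4 shares sit at 0.80 to 2.25% with NVP-2 in both lines, and its all-read CPM is lower in every T3M-4 NVP-2 library.

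Across AsPC-1 libraries, CLDN1 and CLDN7 differed between the library sets, whatever the treatment. Without the NVP-2 libraries, all-read CPM of CLDN1 was 9.64 to 20.8 in the first set (n = 14), 4.84 to 8.79 in the second (n = 15) and 14.7 to 17.4 in the third (n = 8). The second set lay below both others with no overlap. CLDN7 was 17.9 to 34.4, 35.2 to 65.3 and 43.9 to 56.5 CPM, so the first set lay lowest. CLDN4 overlapped throughout, at 98.4 ± 23.5, 122 ± 26.0 and 134 ± 23.2 CPM, as did F11R at 47.2 ± 4.77, 45.4 ± 6.01 and 46.3 ± 1.99 CPM. The third set holds experiment 2 alone. These sets come from the same libraries, so the values are a description without a test. In T3M-4 the CLDN7 share was 5.14 to 7.50% in experiment 1 and 8.16 to 10.8% in experiment 2, which are also its batches.

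**Figure D5:**
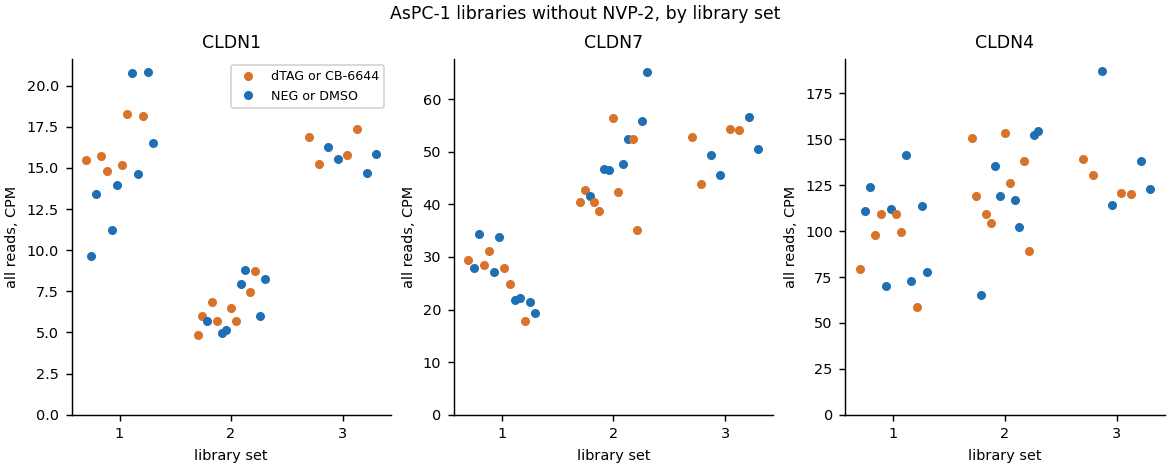
All-read CPM of CLDN1, CLDN7 and CLDN4 in each AsPC-1 library without NVP-2, by library set, coloured as treated (dTAG or CB-6644) or control (NEG or DMSO). CLDN1 is lowest in the second set (4.84 to 8.79 CPM), CLDN7 is lowest in the first (17.9 to 34.4 CPM), and CLDN4 overlaps across sets.

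Beside the members stood 4 lists of junction genes, whose counts on T>C reads with dTAG are read against the 2.4% of all genes called in AsPC-1 and the 0.834% in T3M-4. Of 47 other tight junction genes, 24 were tested on T>C reads with dTAG in AsPC-1 and 1 fell, the scaffold TJP3 (10.6 ± 4.42 against 22.8 ± 7.63 CPM, -1.09, SE 0.24, edgeR adjusted p = 0.0135), with a list median of 0.02. In T3M-4 30 were tested and 1 fell, ARHGEF2, a regulator linked to junctions (128 ± 39.5 against 303 ± 34.8 CPM, -1.31, adjusted p = 0.0380), with a median of -0.05. None rose in either line. Of the 5 partners of claudins, 4 and 5 were tested and 0 passed, with medians of -0.01 and -0.30.

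The desmosome and the adherens junction are the other cell contacts of epithelia. Of 11 desmosome genes, 7 were tested in AsPC-1 and 2 fell, the plaque proteins PKP3 (13.6 ± 3.6 against 24.6 ± 8.02 CPM, -0.85, edgeR adjusted p = 0.0149) and JUP (124 ± 43.8 against 221 ± 61.2 CPM, -0.82, p = 0.0297), with a median of -0.50. All 11 were tested in T3M-4 and 2 fell, PPL (4.18 ± 1.51 against 16.5 ± 6.28 CPM, -2.05, edgeR adjusted p = 0.0306) and JUP (129.7 ± 11.2 against 226 ± 27.7 CPM, -0.88, p = 0.0438), with a median of -0.80. JUP was thus called in both lines. Of 10 adherens junction genes, 9 were tested in AsPC-1 and 0 passed (median -0.20), and 10 in T3M-4, where the nectins NECTIN1 (36.7 ± 4.88 against 74.2 ± 6.24 CPM, -1.09, edgeR adjusted p = 0.0169) and NECTIN4 (13.2 ± 1.58 against 27.5 ± 4.44 CPM, -1.13, p = 0.0332) fell (median -0.30).

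By labelled share with dTAG in AsPC-1, 12 of 25 other tight junction genes, 2 of 4 partners, 5 of 9 adherens junction genes and 6 of 10 desmosome genes fell, beside 37.7% of all genes called. In T3M-4 0 fell, beside 0.258%. With CB-6644 no list gene was called on T>C reads at 4 h in AsPC-1, and by share 1 of 24, 0 of 4, 2 of 9 and 1 of 10 fell, beside 1.92% of all genes. With NVP-2 the shares of 23 of 25, 4 of 4, 9 of 9 and 9 of 10 fell in AsPC-1 (93.6% of all genes called) and of 28 of 32, 4 of 5, 10 of 10 and 11 of 11 in T3M-4 (89.5%).

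Genes most like a member were sought by Pearson correlation of log2 T>C CPM for CLDN23 in AsPC-1 (38 libraries without NVP-2, 11695 genes) and OCLN in T3M-4 (16 libraries, 13423 genes). CLDN23 lay nearest to SBDS (r = 0.80), SMIM15 (0.70) and DCLRE1A (0.68). OCLN lay nearest to PHOSPHO2 (0.74), TIGD2 (0.74) and TMEM132D-AS1 (0.73). The points share libraries and depth, and both members are of low counts, so these are descriptions.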

How the data were processed

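SLAM-seq 3′ libraries (QuantSeq) were made after 2 h of 4sU. The authors aligned and counted the reads with slamdunk at its defaults on hg38 over GENCODE 3′UTR exons and summed them per gene, and deposited whole-number counts of T>C reads and of all reads, with no normalization, spike-in or library without 4sU. Columns were mapped to samples by name, and 1 all-reads column was not used.

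Counts were tested in R 4.3.3 with edgeR 4.0.16 (filterByExpr, TMM, quasi-likelihood F test) on the libraries of each comparison. Genes with a Benjamini-Hochberg adjusted p under 0.05 over all genes tested were called. The labelled share was tested with edgeR as the treatment by conversion interaction on T>C and unconverted counts, with the library as a block, for genes averaging at least 50 reads. Its change is a log2 odds ratio. The SE is the size of the log2 change divided by the square root of F. A library's CPM is the count per 1000000 of its own total. DESeq2 1.42.0, limma 3.58.1 (pseudocount 0.5 on the logit scale), other scalings, filters, blocks, batches and left-out libraries or experiments were alternatives. The tests recovered known changes in counts simulated from the T3M-4 CB-6644 comparison. Those changes lay in better-covered genes and were larger than any member gave with dTAG or CB-6644. The simulation therefore does not show that changes of the members' size would be found.

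The members and lists were chosen with earlier results of these data known. All 10 members are named, a gene of the 4 junction lists only where called in a dTAG comparison (at most 4 per list and line), and the 3 genes most like the member of smallest p, by Pearson correlation of log2(T>C CPM + 1) without NVP-2. The study describes biological replicates and independent experiments, but the labels do not say which libraries of an experiment come from separate cultures, so p-values measure the spread between libraries, which may be partly technical. No library stood at the same T>C values as another. Replicate numbers were taken to pair the libraries where every pair's deviations correlated above 0.1: dTAG in AsPC-1 (10 pairs, r from 0.264 to 0.544), dTAG in T3M-4 (4 pairs, 0.167 to 0.453), CB-6644 in T3M-4 (4 pairs, 0.163 to 0.435) and CB-6644 at 12 h (4 pairs, 0.330 to 0.650). In that order, 5 of 10, 3 of 4, 1 of 4 and 2 of 4 libraries were nearest their own number, so the pairing is loose. Whether a shared experiment or library set gives these correlations was not tested. Depth limits the low members CLDN18, TJP1 and CLDN23. Promoters are from RefSeq.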

Additional observations from a re-analysis of the deposited data

Results flagged for a closer look

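Single libraries stood far from the rest of their group by Dixon's test in 14 of 200 groups of values tested (7%), where chance alone marks about 1 in 20. CLDN4 gave 4 of them: a T>C CPM of 502 in AsPC-1 dTAG library 3.3, a T>C CPM of 321 in T3M-4 dTAG library 1.1, a labelled share of 26.0% in AsPC-1 CB-6644 4 h library 1.1 and one of 29.9% in AsPC-1 CB-6644 12 h library 1. CLDN3, a low member, gave 5: T>C CPM of 6.24 in AsPC-1 dTAG library 3.1, of 16.3 in AsPC-1 DMSO 12 h library 1 and of 0.269 in T3M-4 NVP-2 library 2.2, and labelled shares of 13.4% in AsPC-1 dTAG library 3.2 and 1.01% in T3M-4 NVP-2 library 2.2. The others were a CLDN1 share of 20.8% in T3M-4 dTAG library 1.2, a CLDN7 share of 12.0% in AsPC-1 CB-6644 12 h library 2, an OCLN T>C CPM of 15.5 in AsPC-1 NEG library 2.1, a TJP1 share of 49.1% in T3M-4 dTAG library 2.1 and an F11R T>C CPM of 82.6 in AsPC-1 NEG library 3.3. Both CLDN3 values of T3M-4 NVP-2 library 2.2 rest on the same 1 T>C read. The rest of that group had 0, so any single read there would be marked.

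The dTAG effect on the F11R labelled share differed between the lines, by 0.71 log2 odds (T3M-4 minus AsPC-1), in a test of the difference itself (edgeR adjusted p = 0.0243). The median gene differed by 0.40 in the same direction, so much of this is a shift common to genes. The difference in F11R T>C reads was not called.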

How the results depend on the processing

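Of 1867 values of members under an alternative, 1674 kept their direction and side of the threshold, 22 lost a call, 18 gained one, 8 reversed a called or now called direction and 145 uncalled values changed sign. Of 342 counts of calls, 288 stayed within 1.5 times. The causes were not tested.

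For dTAG in AsPC-1 the 281 genes called became 493 with DESeq2, 941 scaled by all reads (1 member), 111 on all reads, 867 with the replicate block, 103 in batch 1 alone, 16 in batch 2 alone, 911 with library set and experiment as a block (1 member, CLDN1), and 36 to 256 with 1 experiment left out, where the members called by share ran from 0 to 3. For dTAG in T3M-4 the 112 became 347 with DESeq2, 3 on all reads, 298 with the replicate block, 292 summed per experiment, 38 in batch 1 alone, 354 with experiment as a block and 22, 39, 48, 50, 56, 60, 63 or 70 with 1 library left out. On the labelled share the difference between lines gave 1 member in place of 0. The replicate block lost the CLDN23 share call in AsPC-1 (edgeR adjusted p = 0.0680) and changed no other call of a member in the paired comparisons.

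For CB-6644 the 0 genes called became 1 with DESeq2 and 15 summed per experiment at 4 h in AsPC-1, with 0 to 1 genes and 0 to 1 members by share when 1 library was left out; 7 with DESeq2 and 2 on all reads in T3M-4; and 26 with DESeq2 and 1 with the library set block at 12 h.

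For NVP-2 in AsPC-1 the 3506 genes and 3 members became 10829 and 9 scaled by all reads, 1667 and 0 on all reads and 1616 genes with the library set block, and 2663 to 3517 genes and 3 to 4 members with 1 library left out. The library set block there compares only NVP-2 libraries 1.1 and 1.2 with DMSO libraries 1.1 and 1.2. Scaled by all reads CLDN1 (-2.72), CLDN3 (-2.82), CLDN7 (-2.67) and TJP1 (-2.62) turned lower, and F11R turned to 0.13 on all reads. In T3M-4 the 3263 genes and 2 members became 10680 and 6 scaled by all reads, 807 and 1 on all reads and 2077 genes summed per experiment, 1 member in batch 1 alone, and 2168 to 3693 genes and 1 to 3 members with 1 library left out. Scaled by all reads CLDN1 (-2.56), CLDN7 (-0.79) and TJP1 (-2.36) turned lower.

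Where numbers did not pair the libraries, a replicate block gave a CLDN4 share adjusted p of 0.0444 for CB-6644 at 4 h in AsPC-1 (pair correlations from -0.083 to 0.472, 3 of 5 libraries nearest their own number), 2370 genes for NVP-2 in AsPC-1 (-0.087 to 0.187, 2 of 4) and 2966 in T3M-4 (0.079 to 0.366, 2 of 4), where the CLDN7 share was called (edgeR adjusted p = 0.0188). Shares over at least 200 reads left CLDN23 untested. CLDN18, TJP1 and CLDN23 are limited by depth.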
